A study of Schizosaccharomyces pombe with 9 samples.

Results

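The comparison described here sets the fission yeast strain labelled clr4oe (genotype tetrmit1_clr4oe) against the strain that carries TetR-Mit1 alone (genotype tetr-mit1). Its members were chosen by the sample titles, as the 2 clr4oe libraries and the 3 TetR-Mit1 libraries that have a column in the count table, 5 of its 8 libraries. The other 3 libraries come from TetR-Mit1-K587A (genotype tetr-mit1k587a), a substitution in the Mit1 part of the fusion, and they entered the filter on low counts, the scaling and the estimate of the spread, but no comparison. All 3 genotypes carry a TetR-Mit1 fusion, so the controls of this comparison hold it too. The labels name 3 samples per genotype, and the clr4oe library with the number 3 was not analysed here. All cells were Schizosaccharomyces pombe in log phase in YEA, a rich medium, at 32 °C, and polyadenylated RNA was sequenced. The labels give 1 strain number per genotype, so strain and genotype cannot be told apart. They do not say that replicates were separate cultures, and p-values then measure only the spread between these samples. How clr4 was overexpressed, and where the sites bound by the Tet repressor part lie, is not given in the sources used here.

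Clr4 is the only methyltransferase of fission yeast that places methyl groups on lysine 9 of histone H3, the mark of heterochromatin. It both writes the mark and binds it through its chromodomain, and it works in a ubiquitin ligase complex with Rik1, Raf2, Cul4 and others. Heterochromatin of this yeast covers the pericentromeres, the mating-type region and the subtelomeres, and smaller islands form over some genes along the arms. Mit1 is the ATP-dependent nucleosome remodeler of SHREC, the complex that also holds the histone deacetylase Clr3 and that keeps transcription low within heterochromatin. The TetR part, a bacterial repressor, tethers the fusion to DNA with Tet operator sites.

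Libraries of this comparison held 14401186 and 13838210 counts for clr4oe, against 13086567 to 14181298 for TetR-Mit1. Across genes, log2 CPM values correlated at a Pearson's r of 0.9965 to 0.9975 in the 4 pairs of libraries that share a genotype, and of 0.9611 to 0.9631 in the 6 pairs that do not. The 10 most abundant genes took 11.1% and 10.8% of the counts in the clr4oe libraries, against 7.62% to 7.70% in the TetR-Mit1 libraries. Of 4887 genes tested, 3179 (65.1%) passed an adjusted p of 0.05 in edgeR's quasi-likelihood test, 1567 of them higher (32.1%) and 1612 lower (33%) in clr4oe. Most of these differences were small, with a median absolute log2 fold change of 0.34. At least 2-fold, 211 genes changed (4.32%), 61 upward (1.25%) and 150 downward (3.07%), and 31 genes changed at least 4-fold, 10 upward and 21 downward. Among all tested genes, 3659 (74.9%) had no overlap between the libraries of the 2 genotypes. Groups that did not overlap, where mentioned below, were thus the common case, and the largest rises and falls were chosen to have them. The genes nearest to the 2-fold threshold on its inner side had log2 fold changes of 1.01 and -1.001.

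The clr4 transcript was higher in both clr4oe libraries, at 284 and 273 CPM (TMM-normalised, which puts all libraries on the same depth), against 53.7, 53.9 and 60.9 CPM in the TetR-Mit1 libraries. The groups lay far apart, and the ratio was 4.96-fold (log2 2.31 ± 0.05 SE, edgeR adjusted p = 1.59e-21). RNA of the native gene and of any extra copy is counted together. The neighbour meu6, a gene for a pleckstrin homology domain protein, lies on the other strand within the annotated 3′ untranslated region of clr4. It had 184 and 171 CPM in clr4oe, against 31.4, 32.4 and 39.1 CPM in TetR-Mit1 (log2 2.37 ± 0.07 SE). Whether the counting used strand is not given in the sources used here, so reads of clr4 and meu6 cannot be told apart.

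Other neighbours of clr4 differed among themselves, as the plot of log2 fold changes around ura4 and clr4 shows. The gene next to clr4 on one side, rxt2 (a subunit of the Rpd3L histone deacetylase complex), had 56.7 and 47.5 CPM in clr4oe, within reach of the 49.3 to 54.5 CPM in TetR-Mit1 (log2 -0.01, edgeR adjusted p = 0.907). Beyond it, arg12, the argininosuccinate synthase of arginine synthesis, rose 2.37-fold. On the other side SPBC428.10 (uncharacterized) rose 1.30-fold, and after it came met17, the homocysteine synthase of sulfur assimilation, with 385 and 389 CPM in clr4oe, against 94.8 to 95.9 CPM in TetR-Mit1. The libraries of each genotype were close for met17, and the change was 4.05-fold (log2 2.02 ± 0.04 SE). Farther out, pho4 on one side and mob1 on the other had log2 fold changes of -0.44 and 0.71.

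**Figure D1:**
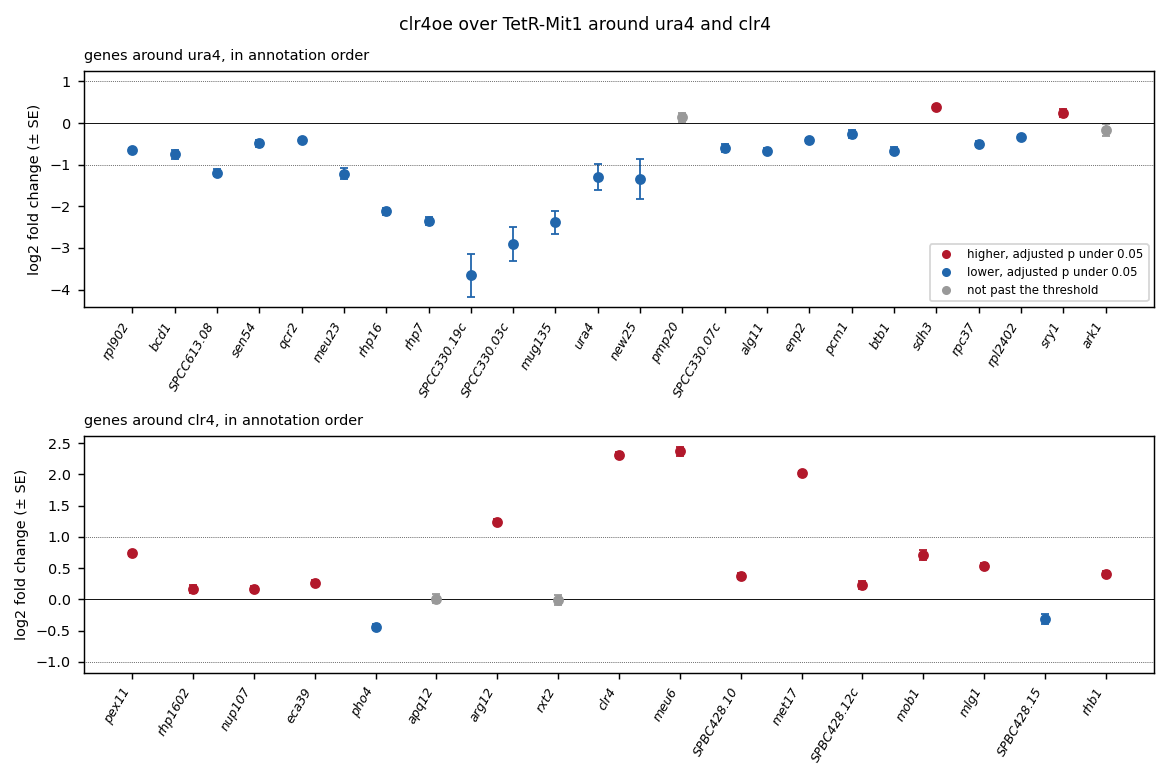
Log2 fold change (clr4oe over TetR-Mit1, ± SE) of neighbouring genes around ura4 (upper panel) and clr4 (lower panel), in annotation order and not to distance. Colours give genes higher, lower or not past an adjusted p of 0.05. The plotted genes from meu23 to new25 all lie below -1, while around clr4 the high values of clr4, meu6, met17 and arg12 stand beside rxt2 at -0.01.

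The mit1 transcript, with the fusion and any native copy counted together, had 344 and 357 CPM in clr4oe, against 379 to 393 CPM in TetR-Mit1. The groups did not overlap, and the difference was small (log2 -0.14 ± 0.04 SE, edgeR adjusted p = 0.0029). It missed the threshold without the first clr4oe library (adjusted p = 0.0524), and mit1 overlaps its neighbour nbr1. Of the 6 SHREC genes tested, 4 fell and 1 (clr1, which links the complex's modules, log2 0.26) rose. Of all tested genes, 33% fell and 32.1% rose. The HP1-type protein gene chp2 had a log2 fold change of -0.36, with an adjusted p of 0.0704 without the first clr4oe library, and clr2 fell by 0.23. The deacetylase gene clr3 had 103 and 104 CPM in clr4oe, against 97.7 to 98.3 CPM in TetR-Mit1 (log2 0.07, adjusted p = 0.188).

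Of the genes for subunits that work with Clr4, and for the HP1 protein Swi6, those given here had log2 fold changes of 0.01 for rik1 (adjusted p = 0.923), 0.15 for cul4 (adjusted p = 0.08), 0.06 for swi6 (adjusted p = 0.259) and -0.17 for raf2 (adjusted p = 0.0269). Among 11 RNA interference genes, arb1 and ago1, of the Argonaute complexes, rose (log2 0.56 and 0.22) and chp1, the chromodomain subunit of RITS, fell (-0.31). Of 10 genes listed as anti-silencing and active-chromatin factors, 2 rose and 1 fell. The gene that fell was lem2 (log2 -0.32), annotated as a nuclear inner membrane protein and not as an anti-silencing factor. The gene epe1, whose product counteracts heterochromatin spreading, had a log2 fold change of 0.07 (adjusted p = 0.283). Histone deacetylase genes outside SHREC (1 higher and 4 lower of 11) and other SNF2 remodelers (2 higher and 7 lower of 10) lay between -0.54 and 0.27. These counts stand beside 32.1% higher and 33% lower of all tested genes. The list medians were -0.18 for SHREC, 0.02 for RNA interference and 0.03 for the anti-silencing factors, beside -0.0026 for all tested genes. The last 2 medians changed sign in at least 1 alternative analysis.

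The largest rises were led by genes near the left end of chromosome II and by the rightmost gene of that chromosome. A gene for a phenazine biosynthesis family protein, aes1, had 442 and 459 CPM in clr4oe, against 46.5, 47.8 and 47.0 CPM in TetR-Mit1, a 9.56-fold rise (log2 3.26 ± 0.04 SE). The arylsulfatase gene SPBPB10D8.02c had 42.4 and 44.2 CPM in clr4oe, against 4.24, 5.89 and 4.48 CPM, an 8.90-fold rise. The RecQ-type helicase gene tlh2, the outermost gene at its end, had 19.2 and 20.4 CPM in clr4oe, against 2.02, 2.69 and 2.74 CPM, a 7.95-fold rise. In all 3 genes the lowest clr4oe library stood several-fold above the highest TetR-Mit1 library. A near-identical copy, tlh1, is not analysed here, and reads of such copies cannot be assigned with certainty. The other large rises were hem13, meu6, clr4, SPBC1271.08c (uncharacterized), SPBPB21E7.08, met17, ecl1 (which extends chronological lifespan when overexpressed), the sphingolipid hydroxylase gene sur2 and the methyltransferase gene SPCC70.08c, with log2 fold changes of 1.83 to 2.57.

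The largest falls among genes with at least 5 CPM on average included SPBC1289.14, str1, nrg1, gdt1, pan5, rhp7, SPAC186.04c, SPBCPT2R1.04c, SPBPB2B2.05, SPAC750.01 and rhp16. The adducin gene SPBC1289.14 had 1.72 and 1.57 CPM in clr4oe, against 16.3, 18.0 and 15.98 CPM in TetR-Mit1, and was 10.1-fold lower (log2 -3.34 ± 0.20 SE). The GDT1-like gene gdt1 had 14.2 and 15.96 CPM in clr4oe, against 84.6, 83.1 and 80.2 CPM, and was 5.48-fold lower. In a bulk culture, fewer cells that express a gene and less RNA per cell cannot be told apart. The rule required that groups not overlap, so the gaps in the plot of the most changed genes are part of the choice. Of the genes just named, only str1 lies outside the chromosome ends and the run around ura4.

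**Figure D2:**
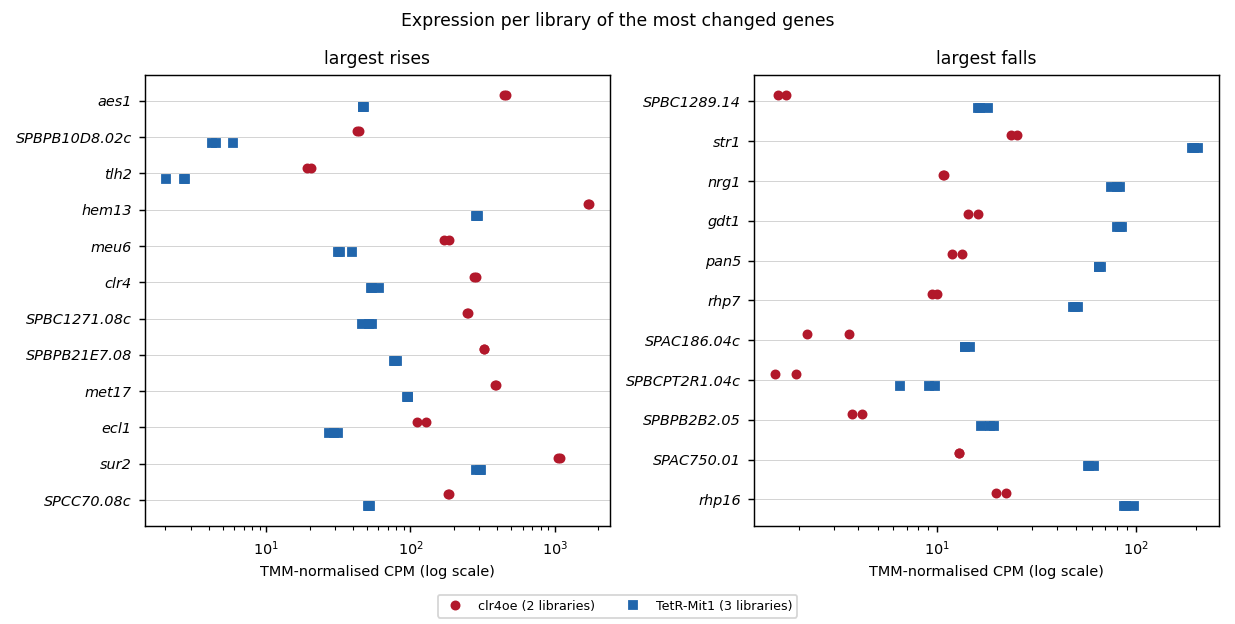
TMM-normalised CPM on a log scale in each clr4oe library (circles) and each TetR-Mit1 library (squares) for the 12 largest rises (left) and the largest falls named in the text (right). The libraries of the 2 genotypes are apart in each plotted row, as the choice of genes required, and those of a genotype lie least close together for low genes such as SPAC186.04c, with 2.21 and 3.58 CPM in clr4oe. The gene aes1 stands at 442 and 459 CPM in clr4oe, against 46.5 to 47.8 CPM in TetR-Mit1.

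Iron uptake genes fell. The regulators Fep1 and Php4 are known to repress uptake genes when iron is plentiful and iron-using genes when it is scarce. Of 9 genes for siderophore and iron uptake, 7 fell and 1 rose, 5 of them fell at least 2-fold, and the median log2 fold change was -1.47, beside -0.0026 for all tested genes. By comparison, 33% of all tested genes fell, 3.07% by at least 2-fold. With at least 10 counts required in every library, shu1 and str3 dropped out and the median of the remaining 7 genes was -0.51. The siderophore transporter gene str1 had 25.2 and 23.4 CPM in clr4oe, against 191, 197 and 206 CPM in TetR-Mit1. It was 8.14-fold lower (log2 -3.03 ± 0.06 SE, edgeR adjusted p = 4.89e-23).

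The high-affinity iron permease gene fip1 had 35.9 and 35.2 CPM in clr4oe, against 98.5 to 102 CPM, and its partner fio1, the iron transport oxidase, had 11.1 and 11.8 CPM, against 29.3 to 35.0 CPM in TetR-Mit1. Both were clearly apart between the groups, 2.83-fold and 2.77-fold lower, and they are adjacent divergent genes. The haem receptor gene shu1 and the siderophore transporter gene str3, neighbours near the left end of chromosome I, were almost silent in clr4oe. Shu1 reads numbered 5 and 7 in clr4oe, 0.345 and 0.501 CPM, against 6.54 to 8.36 CPM in TetR-Mit1, and str3 reads numbered 8 and 6, 0.551 and 0.429 CPM, against 5.09 to 6.29 CPM. Their log2 fold changes were -4.13 ± 0.36 SE and -3.50 ± 0.37 SE.

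The remaining iron genes moved less. The ferric reductase gene frp1 fell by 0.51 and str2 by 0.27 on the log2 scale, and str2 overlaps the abundant rpl6, so part of its reads may be shared. The ferrichrome synthesis genes differed: sib2 (ornithine monooxygenase) rose by 0.38, and sib1 (ferrichrome synthetase) had 103 and 98.8 CPM in clr4oe, within the 94.0 to 110 CPM of TetR-Mit1 (adjusted p = 0.788). The regulator gene fep1 had a log2 fold change of 0.07 (adjusted p = 0.42), while php4 had 37.6 and 38.01 CPM in clr4oe, against 64.1 to 65.1 CPM in TetR-Mit1, and fell by 0.77. Of 7 regulators and iron-sparing targets, 2 rose and 3 fell, where 32.1% of all tested genes rose and 33% fell. The iron-sulfur protein gene isa1 rose the most of the 7 (log2 0.57). The iron-sulfur scaffold gene isu1, outside these lists, was 2.46-fold lower, at 154 and 141 CPM in clr4oe, against 345 to 371 CPM in TetR-Mit1. Copper uptake genes were mixed, with ctr5 and ctr4 lower (-0.60 and -0.36) and the vacuolar transporter gene ctr6 higher (0.58). Of 5 zinc genes, 3 rose, adh4 the most (0.88), with a list median of 0.12, where 32.1% of all tested genes rose.

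Genes for making ribosomes fell in nearly every case, most by less than 2-fold. Ribosome assembly starts with transcription of ribosomal RNA by RNA polymerase I, continues with its processing by the small-subunit processome and snoRNPs in the nucleolus, and ends with export of the subunits. Of 100 genes whose product names place them in ribosome biogenesis, a list drawn up after the values were seen, 98 fell and 1 rose, 36 of them fell at least 2-fold, and the median log2 fold change was -0.80. All 20 tested processome genes and all 8 snoRNP protein genes fell, with medians of -0.69 and -0.54, and 15 processome genes and 3 snoRNP genes also belong to the product-name list. With the subunit genes of RNA polymerases I and III described below, these lists hold 129 genes. Of them 126 fell and 1 rose, where 33% of all tested genes fell and 32.1% rose. The 41 of the 129 that fell at least 2-fold make up 27.3% of the 150 genes that did so. None of the 61 genes that rose at least 2-fold is among the 129.

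The RNA helicase gene dbp3 had 66.3 and 61.7 CPM in clr4oe, against 204, 213 and 222 CPM in TetR-Mit1 (log2 -1.73 ± 0.05 SE). The 60S assembly gene sda1 had 30.7 and 29.8 CPM in clr4oe, against 89.6 to 91.4 CPM, and the nucleolin gene gar2 had 263 and 257 CPM, against 612 to 648 CPM. The groups were well separated in each, with log2 fold changes of -1.58 for sda1 and -1.28 for gar2. The box C/D methyltransferase gene fib1 was the mildest of those named here, 1.24-fold lower. Of the processome genes, utp25 and utp502 fell at least 2-fold (-1.30 and -1.02).

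The lists of RNA polymerase subunits and mitochondrial ribosomal proteins were also drawn up after the values were seen. Subunit genes of RNA polymerases I and III fell in 18 of 19 cases, with a median of -0.71. The polymerase I subunit genes rpa12 and ker1, the polymerase III subunit gene rpc11 and the shared subunit gene rpc40 were at least 2-fold lower, rpc40 with 83.2 and 97.9 CPM in clr4oe, against 183 to 186 CPM in TetR-Mit1. The 1 member that missed the threshold was rpa34, at 114 and 107 CPM in clr4oe and 108 to 117 CPM in TetR-Mit1 (adjusted p = 0.659). Of 7 RNA polymerase II subunit genes, 1 rose and the other 6 did not pass the test, with a median of -0.001 that changed sign in at least 1 alternative. Of 141 structural ribosomal protein genes of the cytosol, 125 fell and 1 (rps1401, 0.82) rose, with a median of -0.35, and only rpl3402 passed 2-fold (-1.16). Most of these proteins are encoded by near-identical gene pairs, so single members are uncertain. Of 75 mitochondrial ribosomal protein genes, 14 rose and 20 fell (18.7% and 26.7%, against 32.1% and 33% of all tested genes). The list median of -0.01 changed sign in at least 1 alternative. Translation elongation genes fell in 5 of 7 cases.

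**Figure D3:**
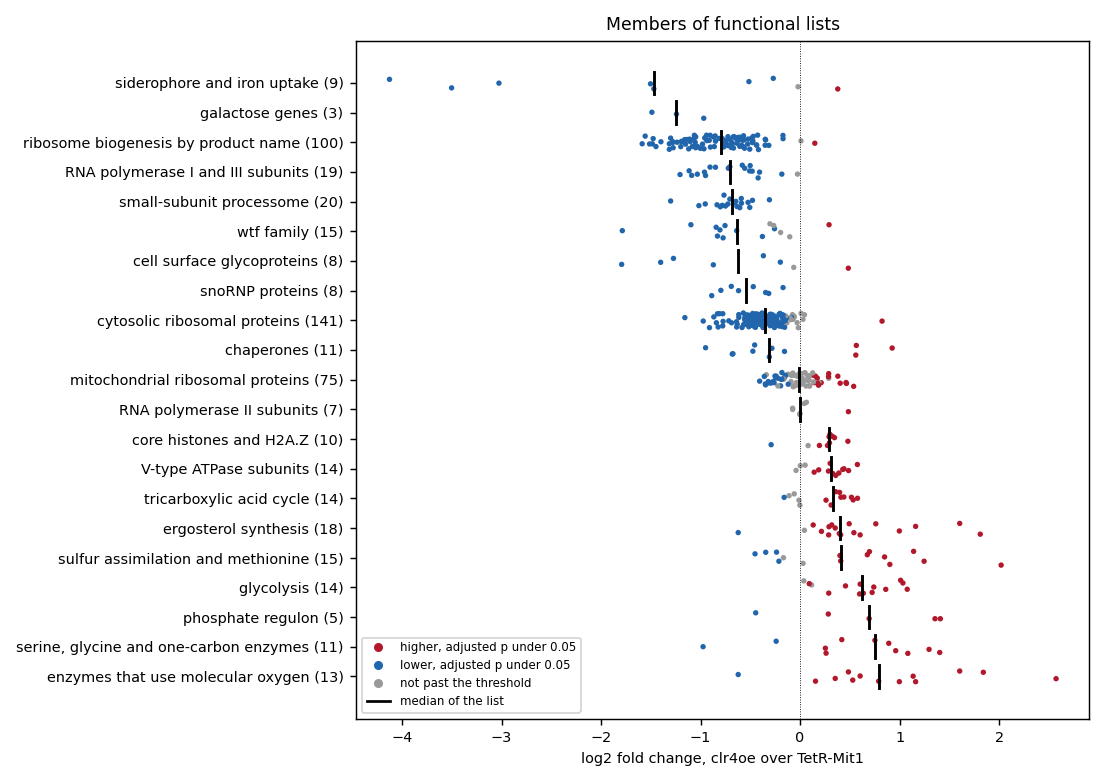
Log2 fold change (clr4oe over TetR-Mit1) of each tested member of 21 functional lists, with the number tested in brackets, coloured by whether the gene was higher, lower or not past an adjusted p of 0.05; the black bar is the list median. The 21 lists are a selection. Among them, iron uptake genes lie furthest to the left (median -1.47) and enzymes that use molecular oxygen furthest to the right (median 0.79). Over the 7 iron uptake genes with at least 10 counts in every library the median is -0.51, nearer to 0 than the ribosome biogenesis list. The oxygen list was drawn up after the values were seen. So were those of ribosome biogenesis, RNA polymerase subunits, mitochondrial ribosomal proteins, V-type ATPase, galactose, sulfur, and serine and one-carbon genes.

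Genes for oxygen-dependent steps of sterol, haem and sphingolipid synthesis rose. Sre1, the fission yeast sterol-regulated transcription factor, is known to activate such genes when oxygen or sterol is low. Its gene, sre1, had 601 and 591 CPM in clr4oe, against 173, 163 and 173 CPM in TetR-Mit1. The rise was 3.51-fold (log2 1.81 ± 0.04 SE, edgeR adjusted p = 7.93e-22). Of 18 ergosterol synthesis genes, 16 rose and 1 fell, 3 of them rose at least 2-fold, and the median was 0.40. By comparison, 32.1% of all tested genes rose, 1.25% by at least 2-fold. The C-5 sterol desaturase gene erg31 had 604 and 618 CPM in clr4oe, against 194 to 206 CPM, and the squalene monooxygenase gene erg1 had 723 and 800 CPM, against 330 to 346 CPM in TetR-Mit1. They rose 3.04-fold and 2.24-fold, while the second C-5 desaturase gene, erg32, was 1.54-fold lower.

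Coproporphyrinogen oxidase, the product of hem13, uses oxygen in haem synthesis. Its gene had 1705 and 1730 CPM in clr4oe, against 287, 286 and 294 CPM in TetR-Mit1, a 5.94-fold rise that is the largest outside the chromosome ends (log2 2.57 ± 0.04 SE). Among 8 haem synthesis genes, listed after the values were seen, 5 rose and 2 fell, with hem15 (ferrochelatase, 0.79) and hem14 (protoporphyrinogen oxidase, 0.49) higher and hem3 (-0.36) and hem4 (-0.25) lower. The sphingolipid hydroxylase genes sur2 and scs7 had 1050 and 1085 CPM and 1032 and 1100 CPM in clr4oe, against 284 to 306 CPM and 478 to 490 CPM in TetR-Mit1. They rose 3.58-fold and 2.20-fold. Taking 13 enzymes that use molecular oxygen, a list drawn up after the values were seen and sharing 6 members with the ergosterol list, 12 rose and 1 (erg32) fell, with a median of 0.79. The acyl-CoA desaturase gene ole1 moved least (log2 0.15). In the fatty acid synthesis list 2 of 4 genes rose, where 32.1% of all tested genes rose and 33% fell. These 2 were ole1 and lsd1 (log2 0.19), and lsd1 is annotated here as a histone demethylase, not as a fatty acid enzyme. The peroxiredoxin genes bcp1 and tpx1 rose 2.89-fold and 2.26-fold, and the fumarate reductase gene osm1 rose 2.29-fold. Apart from tpx1, the 14 genes of glutathione transfer and oxidative defence changed less than 2-fold, 5 higher in all and 3 lower.

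Glycolysis genes rose. Of 14 genes, 12 rose (85.7%, against 32.1% of all tested genes), with a median of 0.62. Glyceraldehyde-3-phosphate dehydrogenase gene tdh1 had 19579 and 19014 CPM in clr4oe, against 9754, 9385 and 9612 CPM in TetR-Mit1. Enolase gene eno101 had 14162 and 13863 CPM in clr4oe, against 6714 to 6963 CPM, and phosphoglycerate kinase gene pgk1 had 13679 and 13222 CPM, against 6296 to 6488 CPM. Each was about 1 unit higher on the log2 scale (1.01, 1.03 and 1.08), while gpd3, the paralogue of tdh1, had a log2 fold change of 0.04 (adjusted p = 0.387). These abundant genes rose in the same libraries in which the 10 top genes took a larger share of the counts, and the part of that shift in the falls of other genes was not tested. Tricarboxylic acid cycle genes rose in 9 of 14 cases and fell in 1, with a median of 0.33. Hexose transporter genes had 4 higher and 2 lower of 8 (50% and 25%, against 32.1% and 33% of all tested genes). Only ght3, of gluconate uptake, changed 2-fold (-1.69), and it lies in a run near a chromosome end.

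Serine, glycine and one-carbon enzymes, a list drawn up after the values were seen, rose in 9 of 11 cases and fell in 2, with a median of 0.75. By comparison, 32.1% of all tested genes rose and 33% fell. The gene ser3, for the enzyme that starts serine synthesis from glycolysis, had 1515 and 1521 CPM in clr4oe, against 542, 580 and 600 CPM in TetR-Mit1, a 2.64-fold rise. The folate enzyme gene thf1 had 811 and 776 CPM in clr4oe, against 319 to 327 CPM, and rose 2.45-fold. Its counterpart ade9, an enzyme of the same folate steps, moved the other way, with 75.7 and 78.7 CPM in clr4oe, against 148 to 155 CPM in TetR-Mit1. The genes of the glycine cleavage complex rose together, gcv1 by 1.08, gcv2 by 0.89 and gcv3 by 0.96 on the log2 scale.

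In sulfur assimilation and methionine metabolism, a list also made after the values were seen, 9 of 15 genes rose and 4 fell, with a median of 0.41. Besides met17, the sulfate transporter gene sul2 (2.37-fold) and the adenosylhomocysteinase gene SPBC8D2.18c (2.20-fold) rose at least 2-fold. The S-adenosylmethionine synthetase gene sam1, whose product makes the methyl donor of methyltransferases, had 2045 and 2080 CPM in clr4oe, against 1072 to 1138 CPM in TetR-Mit1, a 1.87-fold rise. In arginine metabolism 5 of 9 genes rose and 3 fell, where 32.1% of all tested genes rose and 33% fell, and arg12 was the only member past 2-fold.

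Phosphate genes rose in 4 of 5 cases, where 32.1% of all tested genes rose. Both pho1 and tgp1 are known to be kept low by transcription of a non-coding RNA upstream of each. The acid phosphatase gene pho1 had 3659 and 3636 CPM in clr4oe, against 1434, 1425 and 1418 CPM in TetR-Mit1, a 2.56-fold rise (log2 1.36 ± 0.03 SE). The glycerophosphodiester transporter gene tgp1 had 186 and 171 CPM in clr4oe, against 64.8 to 69.4 CPM, and rose 2.66-fold. Neither gene had overlapping groups, as held for 74.9% of all tested genes. The polyphosphate polymerase gene vtc4 rose 1.62-fold and the phosphate transporter gene pho84 1.22-fold, while pho7, which encodes the activator of these genes, fell by 0.45 on the log2 scale. Of 7 thiamine genes, 4 fell, thi4 the most (-0.58), with a list median of -0.23, where 33% of all tested genes fell.

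Genes for daughter-cell separation included 2 glucanase genes that fell. The endoglucanase gene eng1 had 39.7 and 38.4 CPM in clr4oe, against 101, 114 and 115 CPM in TetR-Mit1, and agn1 had 74.3 and 69.2 CPM, against 150 to 154 CPM. They were 2.83-fold and 2.12-fold lower. Cell surface glycoprotein genes fell in 6 of 8 cases and rose in 1, with a median of -0.62, and pfl9, pfl3 and pfl5 fell at least 2-fold (-1.79, -1.40 and -1.27). Glucan synthesis genes of the cell wall had 7 of 11 lower and 1 higher, with a median of -0.14, where 33% of all tested genes fell.

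Pyrimidine synthesis and uracil uptake genes fell in 5 of 6 cases, where 33% of all tested genes fell. The synthesis genes ura3, ura5 and ura1 lay just short of 2-fold (-0.99, -0.99 and -0.95), the uracil permease gene fur4 fell by 0.31, and ura2 had a log2 fold change of -0.04, not past the threshold. The sixth, ura4, belongs to the run described last. Of 7 auxotrophic marker genes besides ura4, 4 rose and 2 fell, with a median of 0.40.

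Stress and protein-folding genes were mixed. Among 12 core genes of the Sty1-Atf1 stress response 6 rose and 2 fell, none by 2-fold, where 32.1% of all tested genes rose and 33% fell. The median of the 12 was 0.13. The small heat shock gene hsp16 had 700 and 709 CPM in clr4oe, against 352 to 393 CPM in TetR-Mit1, while hsp9 had 947 and 907 CPM, within the 887 to 984 CPM of TetR-Mit1. Stress regulators had 4 of 8 higher and 1 lower. Of 11 chaperone genes, 8 fell and 3 rose. Those that fell included hsp90 (-0.68) and the Hsp70 gene ssa2 (-0.95), and those that rose were hsp16, the disaggregase gene hsp104 and the Hsp70 gene ssa1 (0.92, 0.56 and 0.56). In lists made after the values were seen, proteasome subunit genes rose in 27 of 36 cases and fell in 1, by little (median 0.19), and V-type ATPase subunit genes rose in 11 of 14 (median 0.31). Core histone and H2A.Z genes had 8 of 10 higher and 1 (hht2, -0.29) lower. The H3 and H4 gene copies are near-identical, so single members are uncertain.

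Genes of nitrogen starvation, mating and meiosis were mixed in direction, where 32.1% of all tested genes rose and 33% fell. Nitrogen-starvation genes had 6 higher and 6 lower of 14, with per1 the only member past 2-fold, and 21 amino acid permease genes (listed after the values were seen) had 8 of each, with nrg1 and per1 past 2-fold downward. Pheromone signalling genes had 4 of each direction among 10. Of 6 M-cell genes 1 rose, and of 4 P-cell genes 1 rose and 1 fell. The gene that fell was map1, the activator of P-specific genes, with 7.44 and 10.1 CPM in clr4oe, against 17.2 to 19.2 CPM in TetR-Mit1 (log2 -1.03 ± 0.15 SE). Of 7 meiotic genes that the RNA-binding protein Mmi1 removes in vegetative cells, 3 rose and 2 fell, with rec10 highest (0.79) and ssm4 lowest (-0.79), although their median was 0.46. RNA elimination genes had 6 of 10 lower and 1 higher, the exosome gene rrp6 the most (-0.75). Among 96 tested genes named for the mug and meu screens of meiotic expression, 32 rose (33.3%, against 32.1% of all tested genes) and 18 fell (18.8%, against 33%). Shelterin and telomerase genes had 2 of 7 in each direction (28.6%, against 32.1% of all tested genes higher and 33% lower). Only 2 genes of the mitochondrial genome could be tested, and 1 of them, SPMIT.07, rose at 2.77 CPM in clr4oe and 0.942 CPM in TetR-Mit1 on average. The wtf genes, a family of spore killers and antidotes, fell in 10 of 15 cases and rose in 1, with a median of -0.64. They resemble each other closely, and wtf20 and wtf7 passed 2-fold (-1.79 and -1.10).

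Some genes changed at least 2-fold outside every list, and those that follow were chosen after their values were seen. Among the rises were pas1, a cyclin gene, with 948 CPM in clr4oe and 346 CPM in TetR-Mit1 on average, the mitochondrial matrix gene mmf1 (960 CPM, against 343 CPM), the glutamate dehydrogenase gene gdh1 (1647 CPM, against 777 CPM) and nrf1, of the vacuolar transporter chaperone complex (726 CPM, against 305 CPM). Among the falls were the mitochondrial NADH dehydrogenase gene nde1, with 415 CPM in clr4oe and 944 CPM in TetR-Mit1, and the adenine phosphoribosyltransferase gene apt1 (92.8 CPM, against 267 CPM). The kinase gene mik1, which restrains entry into mitosis, averaged 14.3 CPM in clr4oe and 40.7 CPM in TetR-Mit1. Of genes tied to chromatin, dri1, annotated as an RNA-binding protein with a part in heterochromatin, had 80.7 CPM in clr4oe and 241 CPM in TetR-Mit1 (log2 -1.58), and the centromere protein gene cnp3 had 90.1 CPM and 184 CPM in the same order (log2 -1.03).

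At the ends of chromosomes I and II, 45.2% of the tested genes changed at least 2-fold, against 3.60% of all genes away from chromosome ends. Subtelomeres of these 2 chromosomes are known H3K9-methylated domains, while both ends of chromosome III carry the ribosomal DNA arrays. Among the 84 tested genes that are within 25 places of an end of chromosome I or II, 38 changed at least 2-fold (45.2%), 9 upward and 29 downward, with a median log2 fold change of -0.61. In places 26 to 50 of the same chromosomes the share was 3%, in places 51 to 100 it was 3%, and beyond them 3.68%. At the ends of chromosome III the outermost 25 genes gave 4%. In places 26 to 50 there, the share was 28%, and that bin holds the run around ura4. Over all 6 ends, 40 of 134 tested genes changed at least 2-fold. Of the 150 end genes in the table, 16 had too few counts to be tested, so the shares describe the tested ones.

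The 4 ends of chromosomes I and II differed from each other. Of all tested genes, 33% fell and 32.1% rose, 3.07% and 1.25% by at least 2-fold. Chromosome II had at its right end 19 lower and 4 higher genes among 23 tested, with 13 and 2 of them past 2-fold. Chromosome I had at its left end 15 lower and 2 higher genes among 23 tested. Its right end had 7 lower and 3 higher genes among 19, and the 5 falls past 2-fold are all among the 8 outermost genes, from ftm4 to pfl9. The left end of chromosome II alone had more rises (7) than falls (4) among its 19 tested genes, with 5 rises and 2 falls past 2-fold. Rises there were 36.8% and falls 21.1%, while the right end of chromosome I had 15.8% and 36.8%. The larger share at each of these 2 ends was near that of all tested genes. Direction thus varied within single ends, as the plot of the outermost genes shows.

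Rises at the left end of chromosome II sat mostly side by side. The neighbours aes1, SPBPB21E7.08, SPBPB21E7.09 (an L-asparaginase gene), SPBPB10D8.01 (a cysteine transporter gene) and SPBPB10D8.02c all rose. SPBPB21E7.08 had 321 and 325 CPM in clr4oe, against 76.7 to 80.5 CPM in TetR-Mit1, and SPBPB10D8.01 had 32.8 and 36.4 CPM, against 10.5 to 14.4 CPM. The groups did not overlap in these 5 genes, as in 74.9% of all tested genes. For aes1, SPBPB21E7.08 and SPBPB10D8.02c, among the largest rises, the choice of genes required this. Since SPBPB21E7.09 rose only 1.80-fold, these 5 genes do not form a run of 2-fold genes, and SPBPB10D8.01 and SPBPB10D8.02c overlap each other. Farther out on the same end, the transcription factor gene grt1 rose (log2 1.44) next to SPBPB8B6.05c, another L-asparaginase gene, which fell (log2 -1.57).

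**Figure D4:**
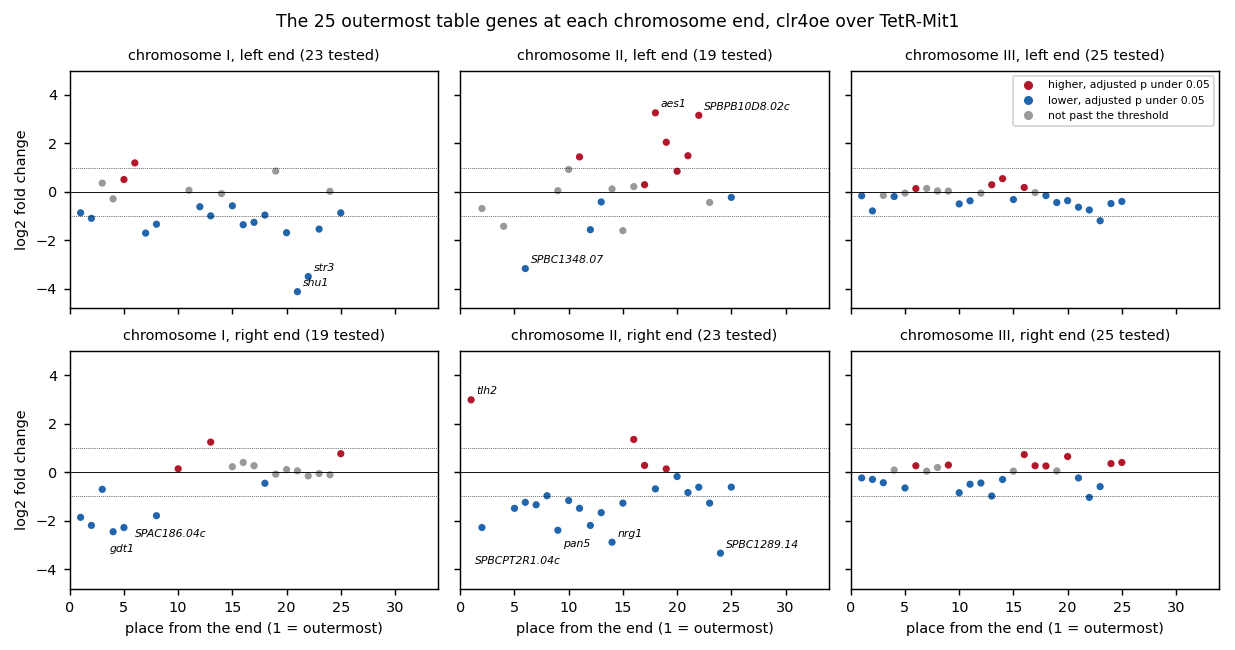
Log2 fold change (clr4oe over TetR-Mit1) of the tested genes among the 25 outermost at each chromosome end, by place from the end; dotted lines mark 2-fold. Most genes at the right end of chromosome II lie below 0, with tlh2 and pho1 the only rises past 2-fold there, rises cluster at places 17 to 22 of the left end of chromosome II, and the ends of chromosome III stay mostly within 2-fold.

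Neighbouring genes changed together at 6 places, counting runs of at least 3 consecutive genes that each changed at least 2-fold in one direction. These runs hold 29 genes, 26 lower in 5 runs and 3 higher in 1 run, and 3 of the runs lie at chromosome ends. Of the 150 genes lower by at least 2-fold, 26 are in runs, and 14 of these are also end genes. With a length of at least 2 genes there are 19 runs with 55 genes. The plot along gene order shows the 6 runs among the remaining 2-fold genes, some of which are also adjacent or lie near chromosome ends.

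**Figure D5:**
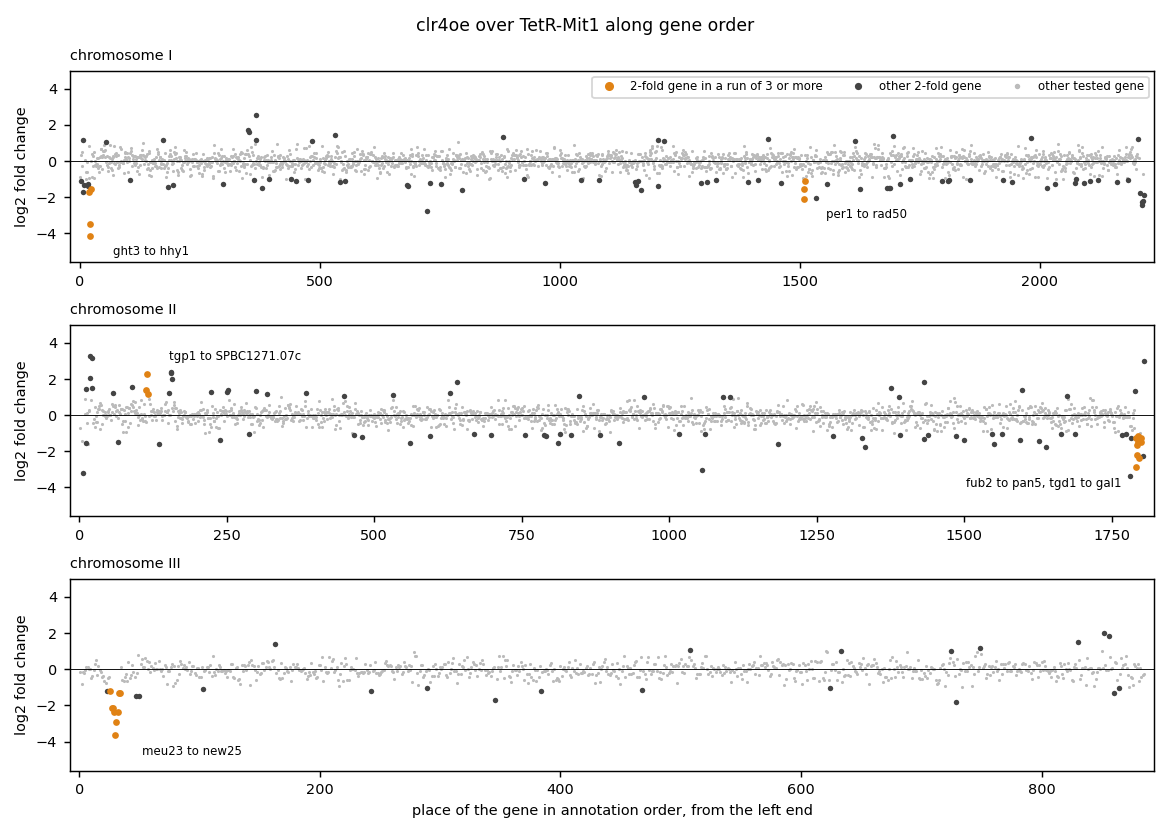
Log2 fold change (clr4oe over TetR-Mit1) of all tested genes by place in annotation order on chromosomes I, II and III. Genes in runs of at least 3 consecutive 2-fold genes are orange, other 2-fold genes dark grey; the 6 runs appear as columns of orange points, and the deepest lie near the left end of chromosome I and around ura4 on chromosome III.

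The 1 rising run holds tgp1, SPBC1271.08c and the N-acetyltransferase gene SPBC1271.07c on chromosome II. SPBC1271.08c had 245 and 251 CPM in clr4oe, against 51.2, 54.0 and 46.1 CPM in TetR-Mit1, the most of the 3 at 4.92-fold. SPBC1271.07c had 103 and 101 CPM in clr4oe, against 44.7 to 45.1 CPM.

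A run of 7 falling genes near the right end of chromosome II goes from pan5 inward to fub2 and stops where pho1, the next gene, rose. The amino acid permease gene nrg1 had 10.7 CPM in both clr4oe libraries, against 74.9, 79.9 and 83.1 CPM in TetR-Mit1, and the ketopantoate reductase gene pan5 had 11.8 and 13.2 CPM, against 64.9 to 67.0 CPM. They were 7.40-fold and 5.25-fold lower, and both are among the largest falls, chosen for groups that do not overlap. The others were SPBPB2B2.05, of the glutamine amidotransferase family, the phosphatase gene SPBPB2B2.06c, the sterol deacetylase gene say1, the low-count fub2 and SPBPB2B2.08 (uncharacterized). SPBPB2B2.08 had 22 and 10 reads in clr4oe, and without the second clr4oe library it no longer passed the threshold (log2 -0.73, adjusted p = 0.183).

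Closer to that end lie the galactose genes, although wild-type fission yeast is known not to grow on galactose alone. The genes tgd1 (a nucleotide-sugar dehydratase), gal10 (epimerase) and gal1 (galactokinase) form a run, in which tgd1 and gal10 overlap each other. The gal1 gene had 25.01 and 24.4 CPM in clr4oe, against 66.7 to 73.4 CPM in TetR-Mit1, and was 2.81-fold lower. Between the 2 runs gal7, the uridylyltransferase gene, had 21.2 and 21.3 CPM in clr4oe, against 41.0 to 42.3 CPM, and missed 2-fold at 1.96-fold lower.

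On chromosome I, ght3, shu1, str3 and hhy1 (a hydrolase gene) form a run of 4 at places 20 to 23 from the left end. The gene hhy1 had 10.7 and 10.2 CPM in clr4oe, against 29.4 to 31.4 CPM in TetR-Mit1, and ght3 had 3.997 and 3.51 CPM, against 10.1 to 15.1 CPM. Within the arm of chromosome I, far from an end, per1, emc5 and rad50 fell together. The amino acid permease gene per1 had 18.1 and 19.0 CPM in clr4oe, against 75.3 to 79.6 CPM, and was 4.21-fold lower. The endoplasmic reticulum membrane complex gene emc5 and the double-strand break repair gene rad50, which overlap each other, were 2.95-fold and 2.17-fold lower.

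The longest run is on chromosome III, where 9 consecutive genes from meu23 to new25 fell at least 2-fold. They include rhp16, rhp7 and ura4, and the run has log2 fold changes of -3.66 to -1.21. The nucleotide excision repair genes rhp7 and rhp16, whose products act as a complex on damaged DNA, overlap each other. The rhp7 gene had 9.92 and 9.38 CPM in clr4oe, against 48.3, 49.2 and 51.0 CPM in TetR-Mit1, and rhp16 had 22.1 and 19.8 CPM, against 87.2, 89.5 and 97.7 CPM. They were 5.12-fold and 4.36-fold lower.

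From SPCC330.19c to new25, expression was low in both genotypes. SPCC330.19c had 2 and 4 reads in clr4oe, 0.138 and 0.286 CPM, against 2.62 to 2.99 CPM in TetR-Mit1, and the cytochrome b5 reductase gene SPCC330.03c had 7 reads in each clr4oe library, against 3.13 to 4.15 CPM in TetR-Mit1. The orotidine decarboxylase gene ura4, widely used as a reporter in silencing assays, had 1.03 and 1.22 CPM in clr4oe, 15 and 17 reads, against 2.64, 2.25 and 3.41 CPM in TetR-Mit1. Its log2 fold change was -1.30 ± 0.31 SE (edgeR adjusted p = 0.000711), and its groups did not overlap, as in 74.9% of all tested genes. The counts do not tell the native gene from a copy placed elsewhere. The last member, new25, had 5 and 10 reads in clr4oe (log2 -1.34 ± 0.48 SE, adjusted p = 0.0171). It lost its call in the fit to the 2 genotypes alone (adjusted p = 0.0522), without the first clr4oe library (adjusted p = 0.163) and without the third TetR-Mit1 library (adjusted p = 0.0724).

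Falls also lay on both sides of this run. The next gene after new25 is pmp20, a thioredoxin-related chaperone gene, with 18.4 and 17.1 CPM in clr4oe and 13.8 to 17.3 CPM in TetR-Mit1, and it did not pass the test (log2 0.14, adjusted p = 0.272). Before meu23, qcr2 and sen54 fell by 0.40 and 0.49. Beyond them SPCC613.08, a cyclin-dependent kinase regulator gene, fell by 1.20, past 2-fold and close to meu23 (-1.21). It is outside the run only because qcr2 and sen54 lie between. Beyond pmp20, the transporter gene SPCC330.07c and the mannosyltransferase gene alg11 fell by 0.61 and 0.66. The log2 fold changes were lowest at SPCC330.19c and SPCC330.03c, between rhp7 and mug135, and closer to 0 at both edges, as the plot around ura4 shows.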

How the data were processed

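Polyadenylated RNA was measured in 8 libraries of 3 genotypes. The deposited table holds whole-number read counts per gene, with no normalization. The submitters' processing notes name STAR, SAMtools, DESeq2 and the build ASM294v2, and the strand setting is not given in the sources used here. Symbols, products, overlaps and gene order come from RefSeq ASM294v3, to which 4906 of 4915 identifiers matched. As the builds differ, no coordinates are given.

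Counts were tested with edgeR 4.0.16 in R 4.3.3, with filterByExpr (28 genes removed), TMM scaling, 1 quasi-likelihood fit over all 8 libraries with genotype as the only term, and Benjamini-Hochberg adjustment over 4887 genes. The code was tested on simulated counts. Values are TMM-normalised CPM, and SE belongs to the log2 fold change.

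The members and 44 gene lists were chosen with earlier results of these data known, and 12 lists were added after values were seen. Lists are described by counts and medians, without a set test. Named genes are the 12 largest rises and falls with an adjusted p under 0.05, groups that do not overlap and 5 CPM or more on average, clr4, mit1, the 2-fold members of each list (otherwise its 2 most changed called members) and the members of runs. Other genes were named after their values were seen. Results for 2 genes, and counts and medians of the lists that hold them, are not reported here. With these totals, 3 counts correspond to 0.208 to 0.229 CPM of an unscaled library, which covers counting error only.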

Additional observations from a re-analysis of the deposited data

How the results depend on the processing

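Leaving out 1 library at a time gave 2795 to 3053 changed genes (1392 to 1514 higher, 1403 to 1539 lower), beside 3179 with all libraries, and 207 to 217 changed at least 2-fold (61 to 62 higher, 146 to 156 lower). It gave 7 to 8 runs with 31 to 33 genes, 39 to 42 chromosome-end genes past 2-fold and a clr4 log2 fold change of 2.28 to 2.37. A test against a 2-fold change itself (glmTreat in edgeR) left 118 genes, 40 higher and 78 lower. Runs depended on their definition: a 1.5-fold limit gave 15 runs with 69 genes, a length of at least 2 genes gave 19 runs with 55 genes, and a length of at least 4 genes gave 3 runs. With 15 outermost genes per end, 25 chromosome-end genes passed 2-fold, and with 50 it was 57, beside 40. With the replicate number as a block, 3119 genes changed, 3042 of them as in the fit without it, and 209 passed 2-fold. The replicate numbers are not said to mark a shared day or batch, so they were not taken as pairs. The deviations of same-numbered libraries correlated at -0.02 and 0.08. Deviations of 2 clr4oe libraries from their own mean mirror each other, so these values cannot decide whether the libraries were paired. DESeq2 called 3004 genes, 3003 of them also by edgeR in the same direction. Upper-quartile scaling moved the median of all genes to -0.05 and the share of higher among called genes to 41.2%. Of 2011 values of named genes under these alternatives, 2004 kept direction and call, 7 lost the call (mit1, gas4, chp2 and SPBPB2B2.08 in 1 setting each, new25 in 3), and none reversed. Medians of 10 lists near 0 changed sign. Genes with few reads, such as SPCC330.19c, shu1, str3 and new25, have the widest errors.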
